A study of Mus musculus with 4 samples.

Results

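Lysosomal proteases and lysozyme are described here as 8 genes taken by name, Ctsb, Ctsc, Ctsd, Ctsl, Ctss, Ctsz, Lgmn and Lyz2, out of 17252 genes in a table of unique molecular identifier (UMI) counts from single cells. All 8 had UMIs in each of the 4 libraries. The cells came from digested spleens of BALB/c mice bearing BCL1, a transplanted mouse B cell lymphoma, taken 13 days after injection of 10000 tumor cells. The mice received an isotype control, anti-CD20 (day 4), anti-CD27 (days 5 to 8) or the combination of both antibodies; these are the days in the labels, and the methods of the single-cell experiment give earlier ones. Barcodes with the prefix PBS were taken as the isotype control because the other 3 prefixes name the other 3 treatments. Each treatment is 1 library, so no test between treatments was possible, and how many mice were pooled into each is not given in the sources used here. BALB/c mice have B cells of their own, so B-like cells can be host or tumor cells.

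Of 3198 barcodes, 1770 had 300 to 3000 detected genes and were kept as cells, 340 to 501 per library. The libraries held 440710 to 939565 UMIs, fewest in the isotype control, and the median per cell was 1031 to 1395.5 UMIs. Levels are given as CPM, the UMIs of a gene per 1e6 UMIs of all genes, after summing the cells in question, and all intervals are at 95% and cover counting error only. No barcode sequence was shared between libraries among the kept cells.

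Lysosomes degrade material that cells take up by endocytosis and phagocytosis, and macrophages are known for a large lysosomal compartment. Ctsb, Ctsc, Ctsl, Ctss and Ctsz encode cysteine cathepsins, Ctsd encodes the aspartic protease cathepsin D, and Lgmn encodes legumain, which cleaves after asparagine. Cathepsin S degrades the invariant chain in cells that present antigen, and cathepsin C activates serine proteases stored in granules. Lyz2 encodes lysozyme M, which attacks bacterial cell walls and is a classical product of myeloid cells.

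Positions are from GENCODE M21 on GRCm38, the build of the files, and cover the whole gene. Ctsd lies at chr7:142375911-142388038 on the minus strand and Ctsc at chr7:88278085-88310888 on the plus strand. Ctss lies at chr3:95526786-95556403 and Ctsb at chr14:63122462-63145923, both on the plus strand. Ctsl (chr13:64359337-64370890), Ctsz (chr2:174427493-174439039), Lgmn (chr12:102394084-102439813) and Lyz2 (chr10:117277331-117282321) lie on the minus strand. Lyz1, a near-identical paralog, is next to Lyz2 at chr10:117287797-117292868, and reads of the pair may have been split between them, so their separate levels are uncertain.

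Promoter windows from RefSeq (GRCm38.p6) were found for 7 of the 8 genes, all but Ctsb, with a pair of windows for Lgmn. Each holds 300 bases around the start of transcription. They were searched on both strands for CACGTG and for TCACGTG, which contains it; these are the core of the element bound by Tfeb, a regulator of lysosomal genes. They were also searched for GAGGAAGT, of the kind bound by the myeloid factor Spi1, and for GAAANNGAA (interferon response). The windows below are shown for their matches to the Tfeb or Spi1 letters, printed in capitals, and are cut at the start of transcription, or, in Ctss, at the end of a match that crosses it.
Ctsd, chr7:142387828-142388077, minus strand: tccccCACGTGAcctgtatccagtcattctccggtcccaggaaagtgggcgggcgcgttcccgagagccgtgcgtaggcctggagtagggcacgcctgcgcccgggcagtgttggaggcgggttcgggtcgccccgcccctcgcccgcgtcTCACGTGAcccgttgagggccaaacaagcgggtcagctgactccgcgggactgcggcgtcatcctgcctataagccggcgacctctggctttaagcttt
Ctsl, chr13:64370521-64370770, minus strand: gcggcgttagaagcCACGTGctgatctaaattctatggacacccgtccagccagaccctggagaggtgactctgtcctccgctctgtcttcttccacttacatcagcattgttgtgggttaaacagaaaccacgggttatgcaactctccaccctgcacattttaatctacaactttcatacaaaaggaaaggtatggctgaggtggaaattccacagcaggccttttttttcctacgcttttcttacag
Ctsc, chr7:88277835-88278084, plus strand: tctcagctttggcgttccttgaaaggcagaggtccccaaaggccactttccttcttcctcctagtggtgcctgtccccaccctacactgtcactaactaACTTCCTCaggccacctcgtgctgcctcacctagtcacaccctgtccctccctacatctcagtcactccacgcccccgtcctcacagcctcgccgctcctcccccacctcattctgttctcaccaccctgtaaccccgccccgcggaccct
Ctss, chr3:95526536-95526791, plus strand: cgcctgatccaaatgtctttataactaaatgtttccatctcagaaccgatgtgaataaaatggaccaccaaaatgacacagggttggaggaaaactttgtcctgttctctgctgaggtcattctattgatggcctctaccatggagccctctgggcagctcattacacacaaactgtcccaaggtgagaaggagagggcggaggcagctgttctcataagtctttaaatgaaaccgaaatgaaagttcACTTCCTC
Ctsd held CACGTG at 2 places, and Ctsl and the second window of Lgmn at 1 each, against 7.15% of all 32851 windows. In Ctsd and Lgmn the longer TCACGTG matched as well, against 3.77% of windows. Ctsc and Ctss each held GAGGAAGT on the opposite strand, against 3.20% of windows. Ctss also held GAAANNGAA (8.56% of windows), while the windows of Ctsz and Lyz2 held none of these letters. These are matches of letters, and binding was not measured.

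Over all cells, 5 of the 8 genes were at least 2-fold higher in the combination than in anti-CD20, namely Lyz2, Ctsc, Ctsd, Ctss and Ctsl, and none was 2-fold lower. Among all 7572 genes with at least 30 UMIs in this pair of libraries, 9.57% were at least 2-fold higher and 8.54% at least 2-fold lower. The median log2 ratio was 1.26 over the 8 genes and -0.08 over all genes. In such sums, more cells of a type and more RNA per cell cannot be told apart.

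Lyz2 stood at 1355 CPM in the isotype control, 625 CPM in anti-CD20, 3553 CPM in anti-CD27 and 5583 CPM in the combination. Both libraries with anti-CD27 were thus above both without it, and the log2 ratio of combination to anti-CD20 was 3.16 (3.04 to 3.29). Ctsc was at 123, 67.1, 229 and 417 CPM in the same order. Its log2 ratio was 2.64 (2.25 to 3.05), and like Lyz2 it was lowest in anti-CD20 and highest in the combination.

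Ctsd was at 111, 101, 208 and 318 CPM, with a log2 ratio of combination to anti-CD20 of 1.65 (1.32 to 2.004). Ctss was at 515, 404, 702 and 1006 CPM, with a ratio of 1.31 (1.14 to 1.49). Ctsl was sparse, with 9, 21, 34 and 47 UMIs, and its ratio was 1.20 (0.43 to 2.01). All 3 were highest in the combination.

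Ctsb was at 216, 338, 289 and 591 CPM, and its log2 ratio of 0.80 (0.60 to 1.01) was under 2-fold. Ctsz was at 270.0, 175, 253 and 214 CPM, with a ratio of 0.29 (-0.02 to 0.60). Lgmn was at 86.2, 73.4, 48.4 and 85.0 CPM, with a ratio of 0.21 (-0.27 to 0.70). For Ctsz and Lgmn the interval included no difference.

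**Figure D1:**
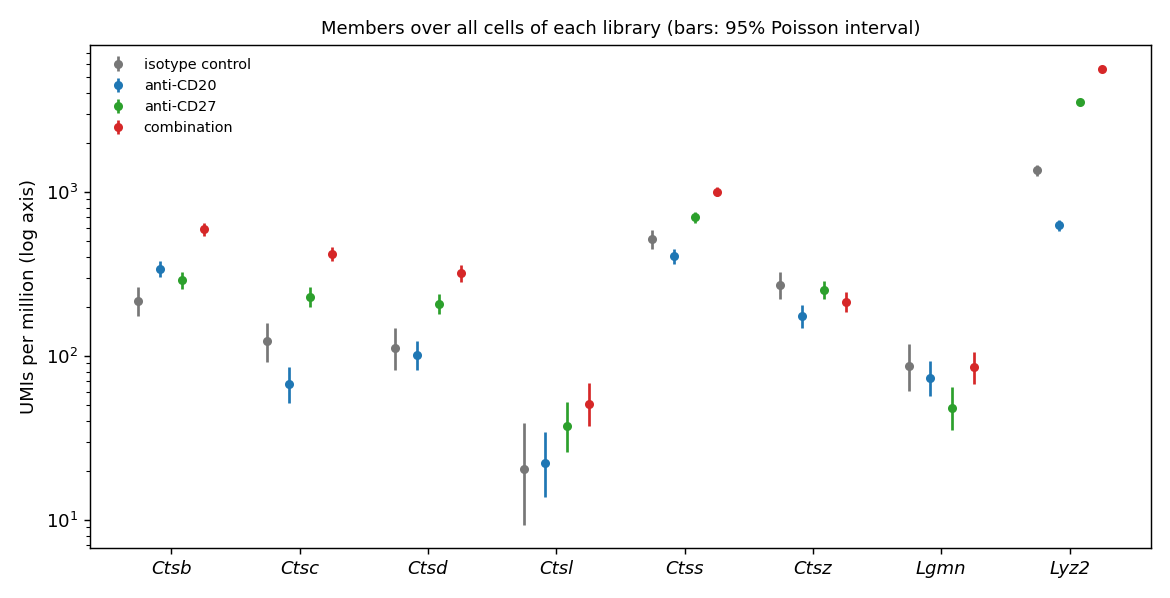
Level of each gene in CPM (log axis) over all cells of each of the 4 libraries, with exact Poisson intervals at 95% and 1 library per treatment. Lyz2 spans 625 to 5583 CPM, and the intervals of Ctsz and Lgmn overlap between anti-CD20 and the combination.

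With anti-CD27 alone, 1 of the 8 genes, Lyz2, was at least 2-fold higher than in the isotype control, and none was 2-fold lower. Of 6612 genes measured in this pair, 7.46% were at least 2-fold higher and 6.34% at least 2-fold lower. The log2 ratio of anti-CD27 to isotype control was 1.39 (1.26 to 1.52) for Lyz2, 0.90 (0.46 to 1.36) for Ctsc and 0.90 (0.44 to 1.39) for Ctsd. Ctss was at 0.45 (0.23 to 0.67), Ctsb at 0.42 (0.08 to 0.78) and Ctsl at 0.87 (-0.22 to 2.12). Lgmn was lower in anti-CD27, at -0.83 (-1.49 to -0.17), and Ctsz was at -0.09 (-0.42 to 0.24). The count of 1 rested on the processing: it was 4 with TMM factors and 0 when each cell had the same weight.

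The cells formed 14 clusters, named by their markers. Macrophage-like cells (C1qa, C1qb, C1qc, Vcam1, Cd5l and 6 further markers among their leading genes) numbered 5 in the isotype control, 10 in anti-CD20, 3 in anti-CD27 and 18 in the combination. Monocyte-like cells numbered 7, 9, 41 and 67 in that order, and Msr1, the interferon-induced Cxcl9 and the complement gene Cfb were among their leading genes beside F13a1, Ms4a6c and Fn1. In the paper, the rise of Cxcl9 under anti-CD27, alone or combined, was placed in macrophages. Whether the macrophages of the paper include these monocyte-like cells was not tested. Neutrophil-like cells numbered 3, 6, 25 and 44, and immature neutrophil-like cells, with granule genes such as Camp, Ngp and Ltf, 5, 3, 24 and 28. Dendritic-like cells numbered 13, 19, 22 and 29, a name that rests on 3 markers (Xcr1, Flt3 and Batf3); the basophil gene Mcpt8 led that cluster and was found in 0, 3, 5 and 1 of its cells. In this cluster the 6 basophil or mast cell markers summed to 0, 22721, 20909 and 887 CPM in the 4 libraries, against 1154 to 2382 CPM for the 12 dendritic markers, and their part in the dendritic-like levels was not tested. Erythroid-like cells numbered 5, 12, 34 and 49, and 10 cells stayed unnamed. The joint lymphocyte classes (B-like, germinal center B-like, plasma-like, T-like, effector CD8 T-like and NK-like) had 301, 439, 346 and 193 cells, of which 185, 105, 187 and 3 were B-like. Levels by class are given for libraries with at least 10 cells of the class.

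Averaged over libraries, 5 of the 8 genes were highest in macrophage-like cells: Ctsb, Ctsl, Ctss, Ctsz and Lgmn. The share of all genes that were highest in this class is not given here, so the count alone does not set these genes apart. Ctsc was highest in monocyte-like, Ctsd in neutrophil-like and Lyz2 in immature neutrophil-like cells. The macrophage-like average rests on anti-CD20 (10 cells) and the combination (18 cells), and the averages of the other 3 classes on anti-CD27 and the combination.

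Ctsb was at 6711 CPM (5680 to 7874) in macrophage-like cells of anti-CD20 and 4461 CPM (3896 to 5085) in those of the combination. The next class was monocyte-like, at 667 CPM in anti-CD27 and 946 CPM in the combination, and T-like cells of the 4 libraries were at 147 to 192 CPM. Of all Ctsb UMIs, 36.9% lay in macrophage-like cells, which were 2.03% of cells. After each cell was thinned to 400 UMIs, 90.0% of macrophage-like cells in anti-CD20 (9 of 10) and 77.8% in the combination (14 of 18) had a UMI of Ctsb, against 4.82% to 9.52% of T-like cells, of which 1 to 3 per library were too shallow and left out. Unthinned, these shares were 100% and 88.9%, against 11.6% to 18.5% of T-like cells, at medians of 833 and 2531.5 UMIs in macrophage-like cells and 876.5 to 1125 UMIs in T-like cells.

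Lgmn was at 805 CPM (477 to 1273) in macrophage-like cells of anti-CD20 and 1095 CPM (825 to 1426) in those of the combination. B-like cells came next, at 65.8 to 115 CPM, followed by those named germinal center B-like at 65.5 and 95.7 CPM. The ranges of these B cell classes overlapped, and both lay below macrophage-like cells. No Lgmn UMI was found in neutrophil-like or immature neutrophil-like cells of anti-CD27 or the combination. The counts allow levels of up to 90.2 and 61.6 CPM in neutrophil-like cells and 34.4 and 27.6 CPM in immature ones (3 counts). Of all Lgmn UMIs, 36.2% lay in macrophage-like cells.

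Ctss was at 2103 CPM (1545 to 2796) in macrophage-like cells of anti-CD20 and 4441 CPM (3877 to 5063) in those of the combination, and at 3015 and 3134 CPM in monocyte-like cells of anti-CD27 and the combination. The order of these neighbouring classes is not resolved, since their ranges overlapped. B-like cells, which also present antigen on MHC class II, were at 572 to 967 CPM, dendritic-like cells at 553 to 854 CPM and T-like cells at 145 to 293 CPM. Monocyte-like cells held 41.6% of Ctss UMIs, B-like cells 20.5% and macrophage-like cells 14.8%.

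Ctsz was at 1029 and 956 CPM in macrophage-like cells of anti-CD20 and the combination, 857 and 581 CPM in monocyte-like cells of anti-CD27 and the combination, and 302 to 649 CPM in dendritic-like cells. B-like cells were at 214 to 324 CPM and T-like cells at 30.9 to 94.3 CPM. Ctsz, an exopeptidase, thus had UMIs in several antigen-presenting classes, with 22.1% of its UMIs in B-like and 14.1% in germinal center B-like cells. Ctsl had 3 and 19 UMIs in macrophage-like cells of anti-CD20 and the combination, and 10 of the 19 came from 1 cell.

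Ctsc was at 1164 CPM (957 to 1403) in monocyte-like cells of anti-CD27 and 1709 CPM (1521 to 1914) in those of the combination. Macrophage-like cells were at 179 and 856 CPM, B-like cells at 86.8 to 197 CPM and T-like cells at 20.8 to 57.0 CPM. Monocyte-like cells, 7.01% of all cells, held 60.3% of Ctsc UMIs over the 4 libraries, but 5.56% in the isotype control, 22.2% in anti-CD20, 52.9% in anti-CD27 and 78.3% in the combination. In the isotype control B-like cells held 61.1%. In neutrophil-like cells, which store the granule proteases that cathepsin C activates, the level was 60.1 and 41.1 CPM, and in immature neutrophil-like cells 0 of 87204 UMIs in anti-CD27, which allows up to 34.4 CPM (3 counts), and 1 UMI in the combination.

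Lyz2 was at 18875 and 19089 CPM in immature neutrophil-like cells of anti-CD27 and the combination, and at 14252 and 15550 CPM in monocyte-like cells. Mature neutrophil-like cells were lower, at 4839 and 3347 CPM, and macrophage-like cells of anti-CD20 and the combination lower again, at 492 and 1752 CPM. Monocyte-like and immature neutrophil-like cells held 49.7% and 43.1% of all Lyz2 UMIs. T-like cells were at 10.4 to 107 CPM. Among germinal center B-like cells of anti-CD20, 47 of 62 Lyz2 UMIs came from 1 cell.

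Ctsd had its highest averages in myeloid and cytotoxic classes, but was also found in T-like cells (136 to 278 CPM) and erythroid-like cells (58.2 to 260 CPM). It was at 571 and 842 CPM in neutrophil-like cells of anti-CD27 and the combination, 673 and 670.0 CPM in NK-like cells of anti-CD20 and the combination, 358 and 717 CPM in macrophage-like cells of those libraries and 179 to 504 CPM in effector CD8 T-like cells. These neighbours overlapped and their order is not resolved. Lymphocyte classes held 53.4% of Ctsd UMIs and effector CD8 T-like cells alone 24.0%, which was 6.12% in the isotype control, 3.16% in anti-CD20, 39.7% in anti-CD27 and 23.6% in the combination. In the isotype control and anti-CD20, T-like cells held more, 36.7% and 28.4%. In these effector cells the macrophage markers summed to 26.9 CPM in anti-CD27 and 104 CPM in the combination, with 8 and 5 of the 11 markers at 0, and the neutrophil markers to 812 and 848 CPM, with 8 and 9 of 14 at 0, among them Cxcr2, Csf3r and Ly6g in both libraries. Monocyte markers summed to 1370 and 1599 CPM, with 6 of 12 at 0 in both, among them F13a1, Fn1 and Vcan. Their part in the Ctsd level was not tested. Within erythroid-like cells Ctsd had 37 UMIs in the combination and 2 in anti-CD20, a log2 ratio of 2.16 (0.21 to 5.26). That ratio was 0.58 with no upper limit on genes.

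**Figure D2:**
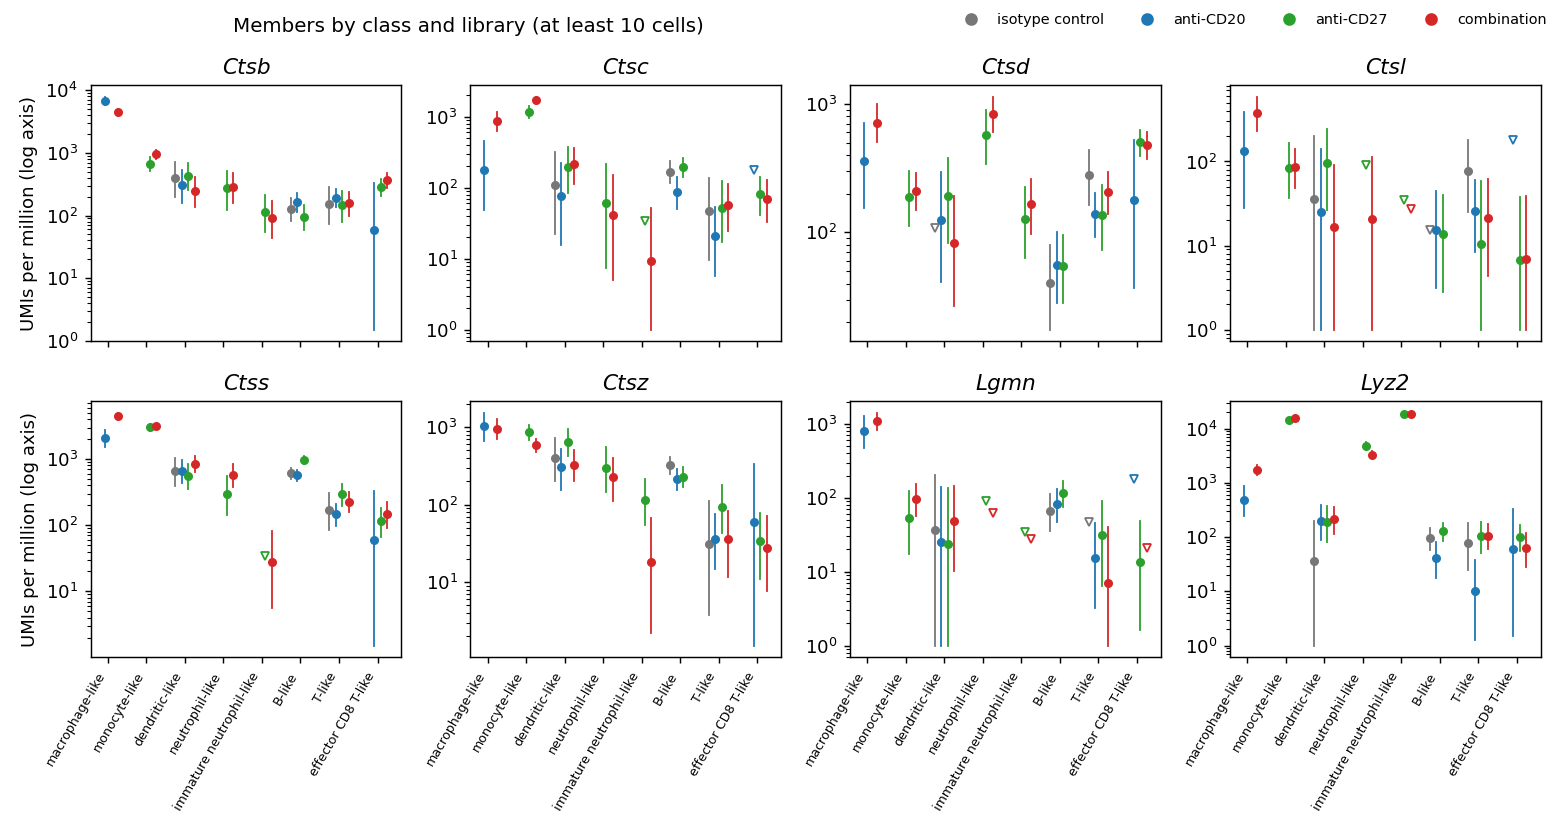
Level of each gene in CPM (log axis) by class in libraries with at least 10 cells of the class, with exact Poisson intervals at 95%; lower ends under 1 are drawn at 1, and open triangles mark classes with 0 UMIs at the level that 3 counts would give. Ctsb and Lgmn stand highest in macrophage-like cells, Ctsc in monocyte-like cells and Lyz2 in monocyte-like and immature neutrophil-like cells.

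**Figure D3:**
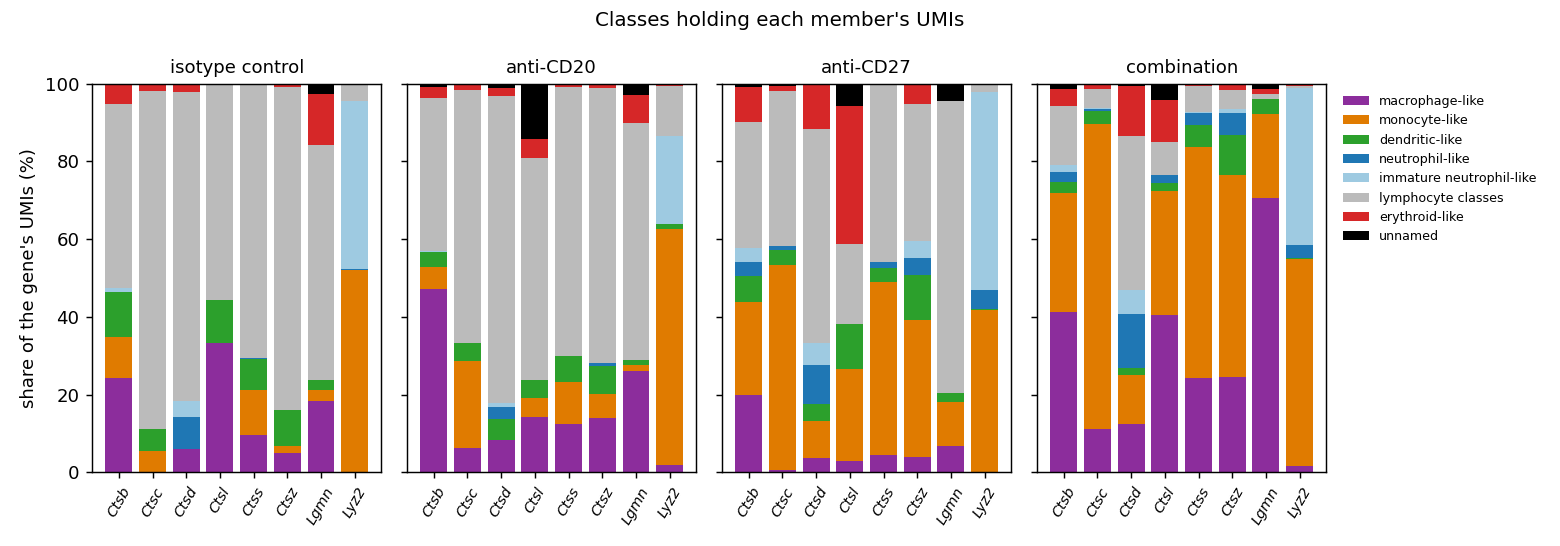
Percent of the UMIs of each gene that lay in each class, in each of the 4 libraries, with the lymphocyte classes joined. Over the 4 libraries together, which is not drawn, macrophage-like cells held 36.9% of Ctsb and 36.2% of Lgmn UMIs. Effector CD8 T-like cells, here within the joined lymphocyte classes, held 24.0% of those of Ctsd.

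Within macrophage-like cells, 4 of 7 measured genes were at least 2-fold higher in the combination (18 cells) than in anti-CD20 (10 cells), and none was 2-fold lower. Of all 349 genes measured there, 21.5% were at least 2-fold higher and 8.31% at least 2-fold lower. This count depended on how the cells were clustered. It was 0 under a first clustering that was replaced, where Ctsb, Ctss, Ctsz and Lgmn were measured at log2 ratios of -0.61, 0.70, 0.36 and 0.57. At a resolution of 0.5 it was 1 higher (Ctsc, 1.80) and 1 lower (Ctsb, -1.24), values close to those of macrophage-like and monocyte-like cells joined. When haemoglobin and mitochondrial genes were left out of the totals it was 2 higher, Ctsc at 2.14 and Lyz2 at 1.71. The 11 measured erythroid markers summed to 103431 CPM in macrophage-like cells of anti-CD20, with 4 at 0 (Car2, Klf1, Slc4a1 and Tmcc2), and to 7328 CPM in those of the combination, with none at 0. The part of red cell RNA beyond this change of the totals was not tested. Monocyte markers summed to 939 CPM in anti-CD20, with 6 of 12 at 0, against 2429 CPM in the combination, with 4 at 0, and neutrophil markers to 313 CPM, with 11 of 14 at 0, against 1454 CPM, with 7 at 0; their part in the result was not tested.

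Ctsc had 4 UMIs in macrophage-like cells of anti-CD20 and 43 in those of the combination, 15 of them in 1 cell, a log2 ratio of 2.26 (0.80 to 4.198). Lyz2 had 11 and 88 UMIs, the latter in 7 of 18 cells, with a ratio of 1.83 (0.92 to 2.89), which was 0.39 when each cell had the same weight. Ctss, with 47 and 223 UMIs, was at 1.08 (0.62 to 1.56), and Ctsd, with 8 and 36 UMIs, at 1.002 (-0.13 to 2.32). Ctsd was thus just past 2-fold, and its interval included no difference. Ctsb went the other way, with 150 and 224 UMIs and a ratio of -0.59 (-0.89 to -0.28), while Lgmn was at 0.44 (-0.35 to 1.30) and Ctsz at -0.11 (-0.85 to 0.68). Anti-CD27 and the isotype control had 3 and 5 macrophage-like cells and were not compared.

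Macrophage-like and monocyte-like cells were also joined, a class added once the cell numbers were known, with 12, 19, 44 and 85 cells in the usual order of libraries. Of the 8 genes, 1 was at least 2-fold higher in the combination than in anti-CD20 (Ctsc) and 1 at least 2-fold lower (Ctsb), against 19.1% higher and 6.66% lower among 1743 genes. Ctsc was at 219, 437, 1089 and 1520 CPM in the 4 libraries, and its ratio of combination to anti-CD20 was 1.80 (1.11 to 2.57). Ctsb was at 2414, 4083, 1129 and 1728 CPM, and its ratio was -1.24 (-1.51 to -0.97). Macrophage-like cells, the class with the highest Ctsb level, were 10 of 19 in anti-CD20 and 18 of 85 in the combination. Ctss was at 0.68 (0.36 to 1.01), Lyz2 at 0.48 (0.33 to 0.65), and Ctsd, Ctsl, Ctsz and Lgmn had intervals that included no difference.

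When anti-CD27 was set against the isotype control, 5 of the 8 genes could be compared in this joint class, of which Ctsc was at least 2-fold higher and Ctsb at least 2-fold lower, against 18.4% and 9.69% of 681 genes. Ctsc had 111 and 3 UMIs, a log2 ratio of 2.31 (0.73 to 4.61). Ctsb was at -1.10 (-1.67 to -0.49), Lyz2 at -0.78 (-0.96 to -0.60), Ctss at -0.19 (-0.63 to 0.28) and Ctsz at 0.59 (-0.45 to 1.85). TMM factors moved every ratio here by 0.77, which put Ctsb at -0.33, Lyz2 at -0.01 and Ctss, with its sign turned, at 0.58; Ctsz went past 2-fold, at 1.36, so that Ctsc and Ctsz were the genes 2-fold apart. Macrophage-like cells were 5 of the 12 cells in the isotype control and 3 of the 44 in anti-CD27.

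**Figure D4:**
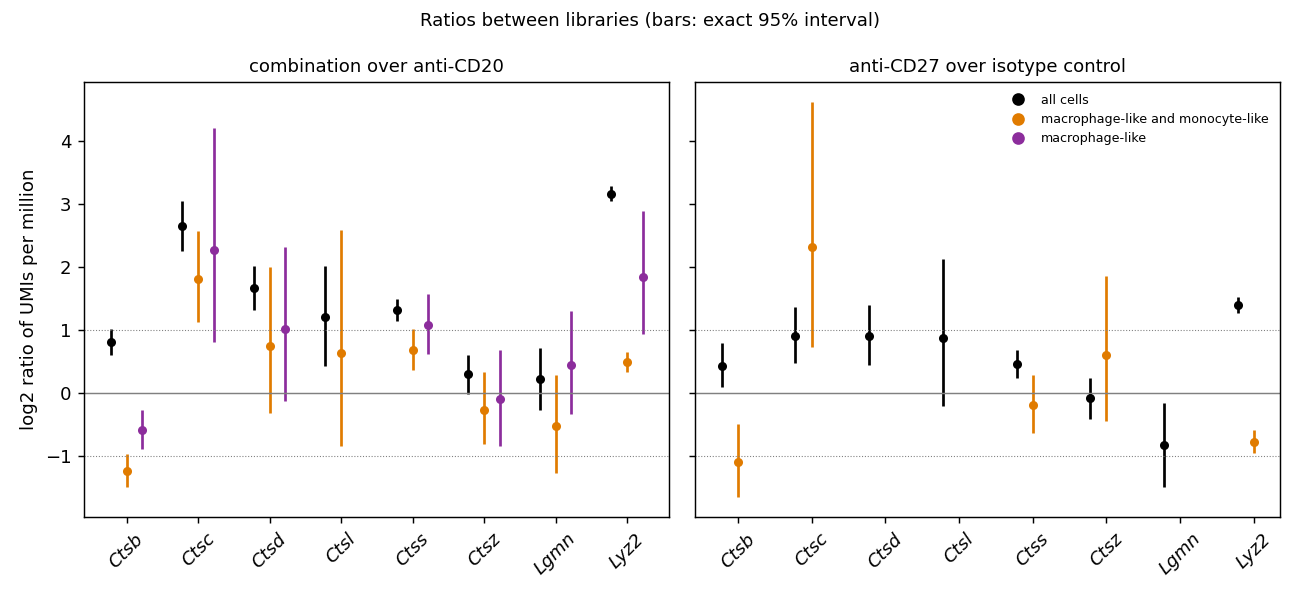
Log2 ratio of each gene between libraries, combination over anti-CD20 and anti-CD27 over isotype control, over all cells and within classes, with exact conditional intervals at 95%. Over all cells Lyz2 stands at 3.16 and Ctsc at 2.64 for the combination, whereas in macrophage-like and monocyte-like cells together Ctsb lies at -1.24.

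For comparison, the class levels of anti-CD20 were weighted by the shares of UMIs of the classes in the combination. Such a share holds both the number of cells of a class and their UMIs per cell, which were not told apart. The part of each in the observed ratios was not tested. For Lyz2 this weighting gave a log2 ratio of 3.21, beside 3.16 observed, and for Lgmn and Ctsz 0.22 and 0.32, beside 0.21 and 0.29. For Ctsb it gave 1.01, beside 0.80. For Ctsc, Ctsd, Ctss and Ctsl it gave 1.33, 0.67, 0.64 and 0.67, below the observed 2.64, 1.65, 1.31 and 1.20. These values rest on 3 to 10 cells of anti-CD20 in each of the macrophage-like, monocyte-like and neutrophil classes. The same for anti-CD27 over isotype control gave 2.11 for Lyz2 beside 1.39 observed, 0.91 for Ctsd beside 0.90, 0.52 for Ctsb beside 0.42 and 0.20 for Ctss beside 0.45. It had the opposite sign to the observed ratio for Ctsc (-0.30), Ctsl (-0.44) and Lgmn (0.49), and was -0.71 for Ctsz beside -0.09, with 3 to 7 isotype control cells in each of these classes. The value for Ctsd also rests on 2 effector CD8 T-like cells of the isotype control. In anti-CD27 that class held 75 of 189 Ctsd UMIs.

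In the joint lymphocyte classes, Ctsz fell from 144 CPM in anti-CD20 to 31.3 CPM in the combination, a log2 ratio of -2.20 (-3.30 to -1.27). Lgmn had 42 UMIs in anti-CD20 and 1 in the combination, a ratio of -4.06 (-9.39 to -1.50), and Ctss was at -0.75 (-1.17 to -0.35). B-like cells held 22.1% of the Ctsz, 23.6% of the Lgmn and 20.5% of the Ctss UMIs of all libraries. The combination had 3 B-like and 0 germinal center cells, against 105 and 121 in anti-CD20. Ctsd was higher in the combination, at 363 against 93.1 CPM and a ratio of 1.96 (1.53 to 2.40), as was Ctsb at 0.73 (0.31 to 1.14); effector CD8 T-like cells numbered 55 and 14. Within effector CD8 T-like cells Ctsb had 53 UMIs in the combination and 1 in anti-CD20, a ratio of 2.63 (0.09 to 7.96), and Ctsd 69 and 3 UMIs, a ratio of 1.42 (-0.18 to 3.74). This Ctsb ratio was 4.12 as a mean over cells and 0.65 without the cell with the most Ctsb UMIs in each library. The latter sets anti-CD20, then at 0 UMIs, to the floor of 3 counts. Within T-like cells Ctsb was at -0.29 (-1.12 to 0.51), Ctsd at 0.56 (-0.25 to 1.37) and Ctss at 0.65 (-0.13 to 1.44) between these libraries, and Ctsd at -1.03 (-2.18 to 0.08) for anti-CD27 over isotype control. Within B-like cells Ctss was at 607 CPM in the isotype control and 967 CPM in anti-CD27, a ratio of 0.67 (0.34 to 1.01).

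A wider list of lysosomal genes and of inhibitors and partners of cathepsins, 104 in the table, was counted over all cells in the same way. Of the inhibitors, Stfa2l1, BC100530 and Stfa2 were among the leading genes of neutrophil-like cells, and their part in the counts was not tested. Between the combination and anti-CD20, 25 of 83 measured genes were at least 2-fold higher and 3 at least 2-fold lower, beside 9.57% and 8.54% of all genes, with a median log2 ratio of 0.52. The same shares of all genes apply to the groups of this list, some of which hold few genes. Among inhibitors and partners of cathepsins, 6 of 10 were higher and 1 lower. Cst3, the secreted inhibitor cystatin C, was at 1321, 679, 900.0 and 1574 CPM in the same order of libraries, a ratio of 1.21 (1.08 to 1.35) for combination over anti-CD20. Cd74, the invariant chain that cathepsin S cuts, was the one that was lower, at 13721, 8221, 6981 and 3765 CPM and a ratio of -1.13 (-1.19 to -1.07). Within macrophage-like cells Cd74 was instead higher in the combination, at 1.44 (1.13 to 1.76). In macrophage-like and monocyte-like cells together it was at 0.35 (0.19 to 0.51), and at 2.29 (1.82 to 2.81) for anti-CD27 over isotype control. Over all cells Cstb was under 2-fold for combination over anti-CD20, at 0.26 (-0.11 to 0.62).

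Of 23 measured glycosidases, lipases and other hydrolases, 7 were at least 2-fold higher in the combination, among them Plbd1 at 1.63 (1.27 to 2.002), Lipa, the acid lipase, at 1.30 (0.83 to 1.79) and Ppt1, a thioesterase, at 1.26 (0.95 to 1.58). Psap, the precursor of activators of lipid hydrolases, was at 1.29 (1.10 to 1.48) and Grn at 1.19 (0.81 to 1.57), 2 of 7 genes of their group. Of 11 membrane proteins 5 were higher, among them Cd68 at 1.73 (1.06 to 2.46), but Lamp1 was at 0.77 (0.48 to 1.07). Of 14 proton pump genes 2 were higher, among them Atp6ap1 at 1.12 (0.57 to 1.68). Among other proteases 1 of 11 was higher (Cpq, 1.58, 0.60 to 2.66) and 1 lower, and Ctsh was at -0.39 (-0.75 to -0.03). Tfeb was at -0.73 (-1.54 to 0.05) and Tfe3 at 0.73 (-0.10 to 1.59), both intervals including no difference, and Lyz1 at 2.62 (1.45 to 4.02). Of the other genes chosen for their UMIs in macrophage-like cells, Gnptab was past 2-fold, at 1.06 (0.36 to 1.80). Under 2-fold were Creg1 (0.90), M6pr (0.74), Atp6v0b (0.61), Ctsa (0.23), Atp6v0e (0.15), Laptm4a (0.14), Laptm5 (0.08) and Ifi30 (-0.54).

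For anti-CD27 over isotype control, 12 of 76 measured genes of the wider list were at least 2-fold higher and 2 lower, beside 7.46% and 6.34% of all genes, with a median of 0.08 beside -0.11 over all genes. Among inhibitors and partners of cathepsins, 5 of 10 measured genes were higher and 0 lower. Cd68 was higher, at 1.39 (0.40 to 2.53), and Ctsh lower, at -1.09 (-1.43 to -0.75). Other named genes that were 2-fold higher in the combination were under 2-fold here. Cst3 was at -0.55 (-0.71 to -0.40), Gnptab at -0.62, Lipa at -0.16 and Ppt1 at -0.05. Plbd1 was at 0.13, Atp6ap1 at 0.28, Lyz1 at 0.31, Psap at 0.41 and Grn at 0.59, and Cpq was not measured. None of the 14 proton pump genes was 2-fold apart. In macrophage-like and monocyte-like cells together, 6 of 44 genes of the wider list were higher and 3 lower in the combination than in anti-CD20, near or under the 19.1% and 6.66% of all genes, with a median of 0.27 beside 0.20 over all genes. In this joint class Cd68, Psap, Grn, Lipa and Atp6ap1 were at -0.48, -0.19, -0.20, -0.59 and -0.16. Ppt1, Plbd1 and Cst3 were at 1.22, 0.41 and 0.27. Also past 2-fold there were M6pr at 1.76 (0.49 to 3.42), Ifi30 at 1.15 (0.37 to 2.06) and Creg1 at -1.56 (-2.07 to -1.03). Ifi30 and Creg1 had the opposite sign over all cells.

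The genes whose levels were most like each of the 8 were sought over 30 profiles, each a class in a library with at least 10 cells, by Pearson correlation of log2(CPM + 10) among 5383 genes. The profiles share libraries and differ in depth, so the correlations are descriptions. Ctsb was most like Lpl (0.86), the macrophage complement gene C1qa (0.85) and Spic (0.84), a transcription factor of red pulp macrophages, and Lgmn most like C1qa (0.80), Spic (0.78) and Apoe (0.78). C1qa and Spic were among the markers that named the macrophage-like cells. By Spearman correlation Ctsb was instead most like Vamp8 (0.88), Ppt1 (0.72) and Anxa5 (0.71). Ctsc was most like Gngt2 (0.83), Rassf4 (0.81) and Ms4a6c (0.81), and Ctss most like Irf5 (0.80), 5031439G07Rik (0.80) and Gngt2 (0.78). Ctsz was most like Unc93b1 (0.89), which carries Toll-like receptors to endosomes, Mir692-1 (0.85) and Irf5 (0.85). Lyz2 was most like Clec5a (0.90), C3 (0.89) and Fpr2 (0.89), a receptor for formyl peptides. Ctsd, most like Dok2 (0.74), Gbp7 (0.74) and Azi2 (0.72), and Ctsl, most like Myo9a (0.74), Serpina3g (0.71) and AI607873 (0.71), had lower values. Among the 8 genes themselves, Ctss and Ctsz were most alike (0.80), and Ctsd was least like Lgmn (-0.28).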

How the data were processed

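Spleen cells were profiled by Drop-seq in 4 libraries, 1 per treatment. The authors trimmed adapters and poly(A), and used STAR 2.5.0a for alignment (mm10) and Dropseq-tools for counting. They deposited raw UMI counts per gene and barcode, whole numbers up to 2416, without scaling or a filter on detected genes. Each library had 799 or 800 barcodes, and the paper took 800 bead-bound transcriptomes per treatment for amplification. The number of barcodes per library was thus set by the method. Barcodes with 300 to 3000 genes were kept, which left out 1377 below and 51 above. Each cell was scaled to a sum of 10000 and put on a log scale, the lysosomal genes were left out of the 2000 variable genes, and 30 components, 15 neighbours and Leiden clustering at resolution 1.0 (scanpy 1.11.5, leidenalg 0.10.2) gave the clusters. An earlier clustering (scaled genes, graph of shared neighbours), seen at resolutions 1.0, 0.5 and 2, was replaced after its clusters were seen, in part because it gave few macrophages, and before levels of the 8 genes by class were computed. The naming rule was set after clusters were seen: a cluster took the class that had most markers, at least 3, in its 30 top genes by fold. Doublets were not removed; Scrublet called 16 of 1770 cells (0.904%). There were 52 pairs of barcodes 1 base apart within a library.

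UMIs were summed per library and class and given as CPM with exact Poisson intervals; ratios have exact conditional intervals and shares of cells exact binomial (Clopper-Pearson) intervals, all for counting error only, since cells are not replicates. A gene was measured with at least 30 UMIs in both libraries together and at least 10 cells of the class in each, and 0 was set to a floor of 3 counts in ratios. The ratio script was tested on simulated data. Alternatives included TMM factors (edgeR 4.0.16). The 8 genes, the marker and gene lists and the motifs were chosen with earlier results of these data known. A further motif that was searched is not reported here. Genes named from the wider list were the 3 of each group with the most UMIs in macrophage-like cells, with Lyz1, Cst3, Cstb, Cd68, Lamp1, Tfeb, Tfe3, Tfec and Mitf; Tfec and Mitf had under 30 UMIs in each pair of libraries. For each of the 8 genes the 3 most alike genes with at least 100 UMIs were named.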

Additional observations from a re-analysis of the deposited data

Results flagged for a closer look

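Barcodes outside the limits on genes were in none of the main comparisons. Those above 3000 genes entered only the alternative with no upper limit. Some groups of these barcodes held more of the genes than barcodes past the same limit in the isotype control. Above 3000 genes, Lyz2 was at 906 CPM in anti-CD27 and 486 CPM in the combination, Ctsc at 346 and 188 CPM, Ctss at 178 and 129 CPM, and Ctsd at 307 CPM in the combination. These were 14 barcodes in anti-CD27 and 30 in the combination, but only 2 in the isotype control. Those 2 held 1 UMI of Lyz2, 0 of Ctsc, 0 of Ctss and 5 of Ctsd, so the reference rests on few counts. Below 300 genes, Lyz2 was at 863 CPM in anti-CD27 and 793 CPM in the combination, and Ctsd at 198 CPM in the combination. The 457 such barcodes of the isotype control were at 443 CPM for Lyz2 and 60.4 CPM for Ctsd. In lymphocyte classes Ctss had opposite directions with and without anti-CD20, at log2 ratios of -0.75 for combination over anti-CD20 and 0.34 for anti-CD27 over isotype control. In macrophage-like and monocyte-like cells together Lyz2 did so too, at 0.48 and -0.78. With 1 library per treatment the difference between these ratios was not tested.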

How the results depend on the processing

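The count of 5 genes at least 2-fold apart between the combination and anti-CD20 over all cells, and that of 5 genes highest in macrophage-like cells (4 to 6), stayed within 1.5 times under every alternative that gave a value. The count for anti-CD27 over all cells, 1 as reported, was 2 with no upper limit on genes, 4 with at least 500 genes per barcode, 4 with TMM factors, 0 as a mean over cells and 2 without the cell with the most UMIs of the gene. The count in macrophage-like cells for the combination, 4 as reported (all higher), was 2 at a resolution of 0.5 (Ctsc higher, Ctsb lower), 0 under the first clustering and 2 without haemoglobin and mitochondrial genes in the totals. The count in macrophage-like and monocyte-like cells together for anti-CD27, 2 as reported, was 1 without called doublets, 1 under the first clustering and 4 with at least 10 UMIs. Ctsb over all cells for anti-CD27 over isotype control turned from 0.42 to -0.0281 as a mean over cells. It was 1 of 19 ratios, of 70 with alternatives, whose sign changed under at least 1 of them, and the only one of the 19 whose interval as reported excluded 0. Among the others were Lgmn for the combination over all cells (0.21, but -0.20 with no upper limit on genes) and in macrophage-like cells (0.44, but -0.53 at a resolution of 0.5), Ctsz in macrophage-like cells (-0.11, but 0.94 as a mean over cells), Ctsb in T-like cells (-0.29, but 0.24 with classes from the markers of each cell) and Ctsd in macrophage-like and monocyte-like cells together (0.73, but -0.22 under the first clustering and 2.16 without the cell with the most UMIs). These causes were not tested. Macrophage-like cells gave no value with at least 500 genes, with at least 20 cells, or without the shallower of barcodes 1 base apart; for anti-CD27 against the isotype control they gave one, 2, at a resolution of 0.5 only. TMM factors raised ratios over all cells, in macrophage-like cells and in these together with monocyte-like cells by 0.08 to 0.77, and lowered others, such as Ctsd in T-like cells for the combination, from 0.56 to 0.50. Spearman correlation or a pseudocount of 50 changed several of the most alike genes, and Spearman correlation kept none of those of Ctsb and Lyz2. No paired analysis was possible because each treatment is 1 library.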
